A study of Mus musculus with 8 samples.

Results

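The primitive endoderm regulators Gata6, Gata4, Sox17, Sox7, Foxa2, Hnf4a, Pdgfra and Dab2 were followed across 8 microarrays of mouse embryonic stem cells that differ in ERF genotype and in loss of RAS. They were taken as a fixed set of 8 genes out of the 21154 genes named on the array, with every probe whose accession maps to one of them. This gave 10 of 55681 probes, since Sox17 and Foxa2 have 2 probes each. None of the 10 probes passed the test in any comparison. On every labelled ERF knockout array, both Sox17 probes read below every ERF wild type array, an order that 0.79% of all tested probes had. The first Sox17 probe lost it with normexp background correction and with quantile normalization. The second kept it under each background correction and scaling tried, with normexp only by -1.81 against -1.80 (log2).

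Primitive endoderm is the extraembryonic layer that lines the blastocyst cavity and gives rise to the parietal and visceral yolk sac endoderm. Cells of the inner cell mass choose between it and the epiblast: FGF signalling through RAS and ERK favours Gata6 and primitive endoderm, while Nanog favours epiblast. Gata6 acts first, followed by Pdgfra, Sox17, Gata4 and Sox7, and embryonic stem cells, which resemble epiblast, normally keep the whole set low. ERF, an ETS factor that represses its target genes, is kept outside the nucleus by ERK phosphorylation.

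Each sample was a mix of 2 clones from one of 4 cell pools. Pools A2 and B2 are labelled ERF-KO and pools A1 and B1 ERF-WT, and each pool was sampled with 4-hydroxytamoxifen (OHT) for at least 2 days and without it. The 4 groups, each with 2 arrays, were thus labelled ERF knockout with OHT, labelled ERF knockout untreated, ERF wild type with OHT and ERF wild type untreated. Cells of all groups, untreated wild type included, were H-Ras-/-;N-Ras-/-;K-Ras lox/lox;RERT ert/ert, so K-Ras was the last RAS gene and OHT activates the Cre that removes it. They grew on gelatin in serum with LIF. The design asks what ERF contributes to the response to RAS loss.

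Between 54.0% and 63.6% of the spots were well above background on each array, and none was saturated. Erf itself read 3.92 with OHT and 3.45 untreated in pool A2, but 5.31 and 5.65 in pool B2, against 4.98 and 5.12 in A1 and 4.93 and 5.43 in B1 (log2 of the processed signal minus the array's 75th percentile, the scale used for all levels here). Pool B2 was therefore not lower in Erf signal than the wild type pools, and "labelled knockout" is used throughout. Erf was read by a single probe, which may lie outside the altered part of the gene. The genotype of B2 could thus not be checked from the arrays. All 8 ES cell markers were well above background on all arrays. The summed trophoblast marker signal, in units of the array's 75th percentile, was 393 with OHT and 334 untreated in pool A2, against 26.9 to 119 on the other 6 arrays. Both B1 arrays lay on slide 2 and the other 6 arrays on slide 1, so pool B1 and slide 2 cannot be told apart. An area of low signal covered 3.02% of the spots of the labelled knockout array of pool A2 with OHT, and the Dab2 spot lay in it.

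Because ERF binds ETS sites and GATA factors act within the set, the RefSeq promoters were searched for CCGGAA, the core of ETS sites, and AGATAA, which GATA factors bind, and further for TGTTTAC of FOX sites and ACAATGG of SOX sites, on both strands of the 250 bases before each gene start. Windows were found for Foxa2, Hnf4a, Pdgfra and Dab2, 8 in all. An ETS match stood in 2 of the 8 windows and a GATA match in 2, with none for FOX or SOX. Over all 32851 promoters of the table, 12.0% held the ETS letters, 9.99% the GATA letters, 3.17% the FOX letters and 3.02% the SOX letters. The 4 matches follow (RefSeq, GRCm38.p6, 5′ to 3′ on the gene's strand, the match in capitals). They are a description of letters, not of binding. The Dab2 match is at chr15:6386582-6386611 (+), 154 bases before the start; the Foxa2 GATA match at chr2:148045630-148045659 (-), 183 bases before; the Foxa2 ETS match at chr2:148046138-148046167 (-), 207 bases before. The Hnf4a stretch at chr2:163506607-163506810 (+) is longer, as Hnf4a had the largest difference between genotypes with areas of low signal left out. That difference includes A2 readings not well above background. The Hnf4a match begins 52 bases before the start used for its window. This start lies inside the gene as RefSeq places it, and the printed stretch stops at the gene's own start.
Dab2, 154 before: gcacgctcctttTTCCGGgtctctgcgatc
Foxa2, 183 before: ctgttagccttgAGATAAtattaactttgt
Foxa2, 207 before: gcgagtctcgggTTCCGGcctccagggttc
Hnf4a, 52 before: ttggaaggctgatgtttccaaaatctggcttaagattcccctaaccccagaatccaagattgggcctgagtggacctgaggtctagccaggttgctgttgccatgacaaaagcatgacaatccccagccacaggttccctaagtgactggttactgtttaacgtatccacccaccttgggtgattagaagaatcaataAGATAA

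The regulators were dim, and they were lower in the labelled knockout without passing the test. All 10 probes had a lower mean in the labelled knockout than in the wild type, with OHT and untreated (except the second Foxa2 probe with quantile normalization, 0.35 untreated). The median difference was -0.81 with OHT, or -0.75 without dark areas, and -0.84 untreated. Over the 12034 tested probes of similar level, between -4 and -1, the median difference was 0.13 and -0.10. With normexp background correction the members' medians were -0.40 with OHT and -0.57 untreated, against 0.09 and -0.25 over those probes. With OHT the 2 labelled knockout arrays lay below both wild type arrays for 7 member probes, or 6 without the Dab2 spot in the dark area, and 7.09% of all 32425 tested probes did so. Without OHT this held for 6 member probes, against 16.5% of all tested probes. None lay above, as 19.3% of all tested probes did with OHT and 8.1% untreated. These counts and shares were taken on the 75th percentile scale. With normexp and OHT, Gata6, Gata4, the first Sox17 probe, Hnf4a and Pdgfra overlapped between genotypes. Besides the dark Dab2 spot, the second Sox17 probe alone then lay below both wild type arrays. With quantile normalization Gata4 and Pdgfra overlapped untreated. In a bulk sample, fewer cells of a type and less RNA per cell cannot be told apart. A probe entered the test if some group had it well above background on each of its arrays, and all 10 member probes did. Hnf4a did so through the wild type groups only, so its place in the counts of lower probes is no support. The second Foxa2 probe did so through wild type with OHT only.

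**Figure D1:**
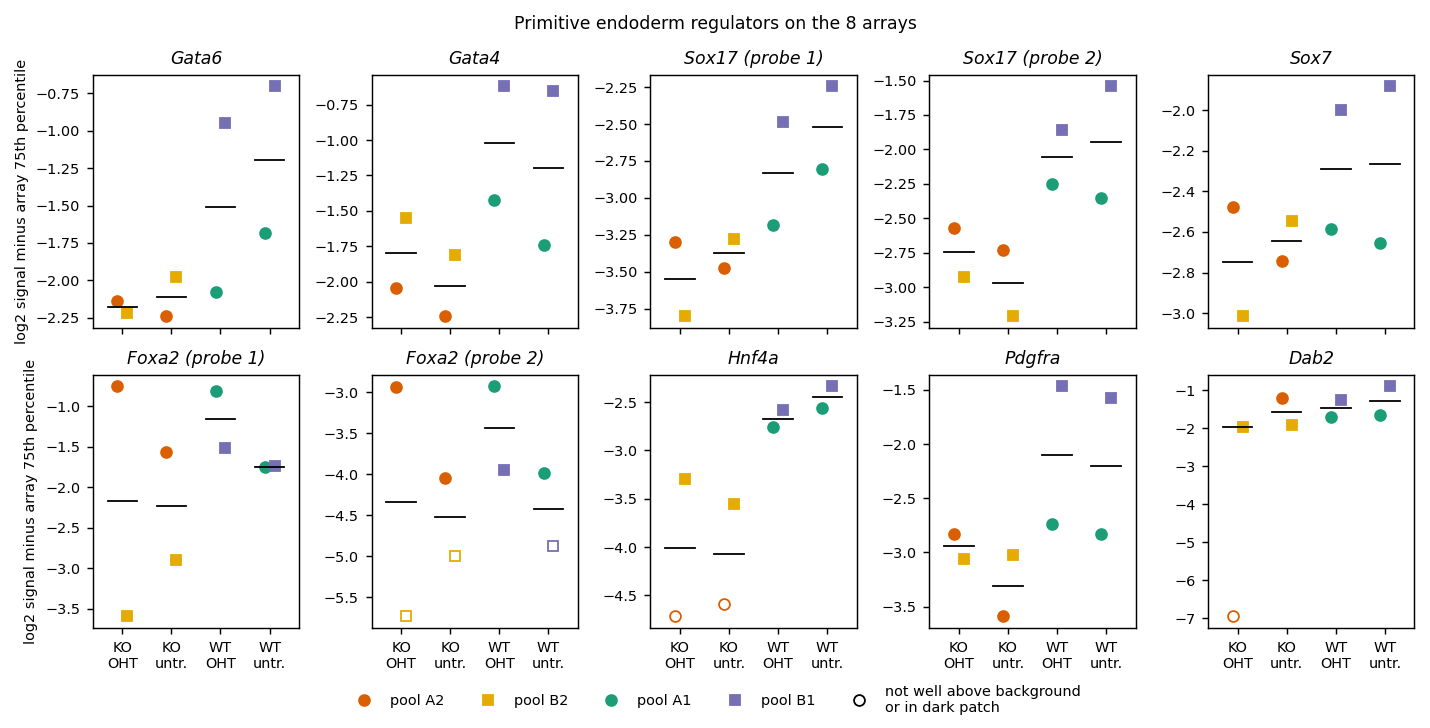
Level of each member probe on the 8 arrays (y axis, log2 signal minus the array 75th percentile; each panel has its own scale), with groups from left to right as labelled knockout with OHT, labelled knockout untreated, wild type with OHT and wild type untreated. Points are arrays coloured by pool, bars are group means, and open points were not well above background or lay in a dark area; the mean of Dab2 in the labelled knockout with OHT is the B2 array alone. Sox17 and Hnf4a sit lower on all 4 labelled knockout arrays on this scale, and Foxa2 is lowest in pool B2.

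Gata6, the GATA factor that starts the primitive endoderm programme, read -2.14 and -2.22 in pools A2 and B2 with OHT and -2.24 and -1.98 untreated, against -2.08 and -0.95 in pools A1 and B1 with OHT and -1.68 and -0.70 untreated. The groups did not overlap under either treatment, but the A1 array with OHT lay close to the labelled knockout arrays and both B1 arrays stood far above all others. With normexp the genotypes overlapped with OHT, A2 reading -1.63 and A1 -1.67. Labelled knockout minus wild type was -0.67 ± 0.47 with OHT and -0.92 ± 0.47 untreated (SE, n = 2 arrays a group), with a limma adjusted p of 1 in both. Among all 32425 tested probes 0.0% passed in any of the 5 comparisons, so the members' count of 0 sets them apart from no other probe. Leaving out the B2 array with OHT, which leaves the dark area of A2 alone in that group, gave 807 calls over all probes for OHT in the labelled knockout.

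Gata4, a related GATA factor active slightly later and also in heart and liver, read -2.04 and -1.55 in A2 and B2 with OHT and -2.24 and -1.81 untreated, against -1.42 and -0.62 in A1 and B1 with OHT and -1.74 and -0.66 untreated. As for Gata6, B1 was highest and the genotypes did not overlap within a treatment. With normexp they overlapped with OHT (B2 -1.33, A1 -1.34), and with quantile normalization they overlapped untreated (B2 6.89, A1 6.84). Untreated B2 minus untreated A1 was only -0.07. The differences between genotypes were -0.78 ± 0.47 with OHT and -0.83 ± 0.47 untreated (SE; limma adjusted p = 1 in both).

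Sox17, an SRY-box factor required in primitive endoderm and later in definitive endoderm, was read by 2 probes that share the gene and are not independent. The first (A_55_P2094706) read -3.30 and -3.80 in A2 and B2 with OHT and -3.47 and -3.28 untreated, against -3.18 and -2.49 in A1 and B1 with OHT and -2.80 and -2.24 untreated. The second (A_55_P2157023) read -2.57 and -2.92 in A2 and B2 with OHT and -2.73 and -3.21 untreated, against -2.25 and -1.86 in A1 and B1 with OHT and -2.35 and -1.54 untreated. With both probes, the highest labelled knockout array was below the lowest wild type array. Over all tested probes 0.79% had this order of 4 arrays below 4, and 1.23% the opposite order. Among the members 3 probes had the first, both of Sox17 and that of Hnf4a, and none the opposite. Hnf4a entered the test through the wild type groups only and was not well above background in A2, so its order is not counted as support. With normexp background correction the second Sox17 probe alone kept the order, its highest labelled knockout array at -1.81 and its lowest wild type array at -1.80. With quantile normalization the second Sox17 probe, at 6.10 against 6.19, and Hnf4a kept it, and the first Sox17 probe did not. The differences for the first probe were -0.72 ± 0.35 with OHT and -0.85 ± 0.35 untreated, and for the second -0.69 ± 0.36 and -1.02 ± 0.36 (SE). Without OHT the second probe had an unadjusted limma p of 0.0298 and an adjusted p of 1.

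Sox7, the related SRY-box factor that marks the later primitive endoderm facing the cavity, read -2.48 and -3.02 in A2 and B2 with OHT and -2.74 and -2.54 untreated, against -2.59 and -2.00 in A1 and B1 with OHT and -2.65 and -1.88 untreated. Here the genotypes overlapped under both treatments, because A1 lay among the labelled knockout arrays and only B1 stood higher. Its differences, -0.45 ± 0.37 with OHT and -0.38 ± 0.37 untreated (SE), were the smallest in size of the 10 probes with OHT.

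Hnf4a, a nuclear receptor of visceral endoderm and liver, read -4.72 and -3.30 in A2 and B2 with OHT and -4.59 and -3.55 untreated, against -2.76 and -2.58 in A1 and B1 with OHT and -2.56 and -2.34 untreated. The 4 wild type arrays lay close together and above all labelled knockout arrays, and on both A2 arrays the spot was not well above background. In processed signal this is 15.3 and 42.7 with OHT and 17.8 and 33.4 untreated in the labelled knockout, against 77.7 and 56.8 with OHT and 71.2 and 61.3 untreated in the wild type. The negative control spots had medians between 3.42 and 4.38. The differences, -1.34 ± 0.55 with OHT and -1.62 ± 0.55 untreated (SE), had unadjusted limma p-values of 0.0506 and 0.0256 and an adjusted p of 1. Both sizes average in the A2 readings, which only bound the level.

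Without pool B2, whose Erf signal was at the wild type level, the limma adjusted p of Hnf4a was 0.0431 with OHT and 0.455 untreated, and with dark areas left out as well, a setting added after seeing the data, it was 0.194 with OHT. That fit sets A2 alone, where the spot was not well above background on either array, against the wild type. It therefore rests on a reading that only bounds the level, no size is given for it, and the spread of A2 is assumed to be like that of the wild type. A2 is also the pool with the high trophoblast markers, whose part in the result was not tested.

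Foxa2, a forkhead factor of visceral and definitive endoderm, differed between pools rather than between genotypes. The first probe (A_55_P2134236) read -0.75 and -3.60 in A2 and B2 with OHT and -1.56 and -2.90 untreated, against -0.81 and -1.52 in A1 and B1 with OHT and -1.75 and -1.74 untreated. Pool B2 was lowest under both treatments, and pool A2 read above both wild type pools, though with OHT by only 0.06 over A1. With normexp untreated A2, at -1.18, lay below untreated B1, at -1.02. The second probe (A_55_P2067533) read -2.94 and -5.73 in A2 and B2 with OHT and -4.04 and -4.99 untreated, against -2.93 and -3.95 in A1 and B1 with OHT and -3.99 and -4.87 untreated, and was not well above background on both B2 arrays and on untreated B1. The differences between genotypes for the first probe were -1.01 ± 0.95 with OHT and -0.48 ± 0.95 untreated, and for the second -0.90 ± 0.96 and -0.09 ± 0.96 (SE; limma adjusted p = 1 in all). Without B2 they were 0.41 and 0.18 for the first and 0.50 and 0.38 for the second probe, so their sign turned with 1 pool. Between the labelled knockout pools, both A2 arrays were above both B2 arrays for the 2 Foxa2 probes and the second Sox17 probe, against 21.9% of all tested probes, and the reverse held for Gata4 and Hnf4a, against 35.6%.

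Pdgfra, the receptor tyrosine kinase that marks primitive endoderm from an early stage and helps it survive, was printed as 10 spots of a single probe, which shows the error within an array. Their mean processed signal was 56.9 ± 8.69 and 50.2 ± 6.32 in A2 and B2 with OHT and 35.4 ± 4.11 and 48.2 ± 6.44 untreated, against 78.5 ± 6.15 and 123 ± 9.49 in A1 and B1 with OHT and 59.2 ± 6.10 and 104 ± 8.46 untreated (SD over 9 or 10 spots). On the scaled log2 levels the genotypes did not overlap within a treatment, though with OHT A2 at -2.83 was close to A1 at -2.74. With normexp they overlapped with OHT (A2 -1.95, A1 -2.02), and with quantile normalization they overlapped untreated (B2 5.78, A1 5.66). Labelled knockout minus wild type was -0.84 ± 0.58 with OHT and -1.11 ± 0.58 untreated (SE over arrays; limma adjusted p = 1 in both). Pdgfra is also a gene of mesenchymal cells: 9 of 10 fibroblast markers were well above background in pools A2, A1 and B1 and 8 of 10 in B2, with Lum below background on every array. Their summed signal, in units of the 75th percentile, was 41.7 and 31.4 in A2 and B2 with OHT and 35.9 and 28.3 untreated, against 23.8 and 43.5 in A1 and B1 with OHT and 22.5 and 39.6 untreated. The part of such cells in the Pdgfra level was not tested.

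**Figure D2:**
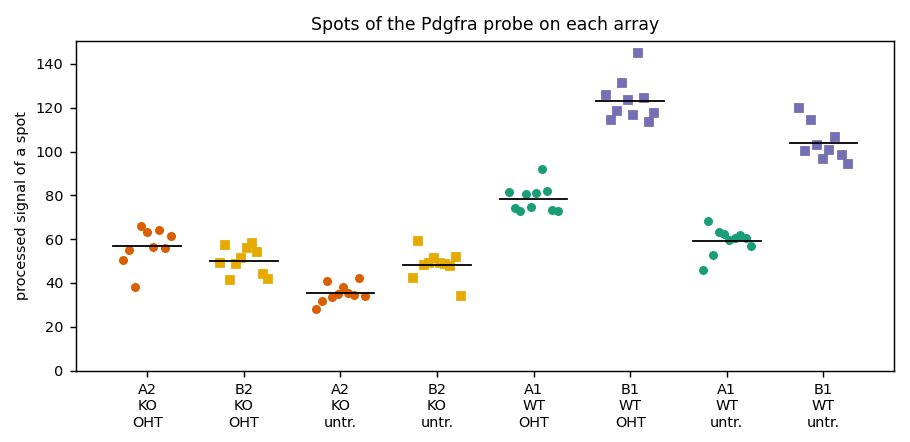
Processed signal (y axis, linear, from 0) of the individual Pdgfra spots on each array, grouped as labelled knockout with OHT, labelled knockout untreated, wild type with OHT and wild type untreated. Points are spots of a single probe and bars are array means; the spots of B1 lie between 94.4 and 145, above those of every other array.

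Dab2, an endocytic adaptor that primitive endoderm needs to form an ordered layer, read -1.96 in B2 with OHT and -1.21 and -1.92 in A2 and B2 untreated, against -1.71 and -1.25 in A1 and B1 with OHT and -1.65 and -0.90 untreated. The A2 array with OHT gave -6.96, a processed signal of 3.24 in the dark area of that array, where the negative controls had a median of 3.43. Leaving dark areas out, labelled knockout minus wild type was -0.48 ± 0.49 with OHT and -0.29 ± 0.40 untreated (SE; limma adjusted p = 1 in both). With the dark spot kept, the difference with OHT was -2.98 ± 1.50 (SE), which rests on that spot. The usable Dab2 values of the genotypes overlapped without OHT, and with OHT B2 was the lowest.

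Pool B1 stood apart within the wild type. Both B1 arrays stood above both A1 arrays for 7 of the 10 member probes, those of Gata6, Gata4, Sox17, Sox7, Pdgfra and Dab2, against 25.1% of all tested probes. B1 minus A1 had a median of 0.62 over the members and -0.09 over the tested probes of similar level. With normexp these medians were 0.61 and 0.32. For Gata6 this gap within the wild type was 1.13 with OHT and 0.98 untreated, larger than the difference between genotypes. Within slide 1, where A2 and B2 are set against A1 alone, the differences with OHT and untreated were -0.10 and -0.43 for Gata6, -0.38 and -0.29 for Gata4, -0.20 and -0.48 for Pdgfra and -0.16 and 0.01 for Sox7. Those of Hnf4a, -1.25 and -1.51, stayed near the values over both slides, but rest in part on A2, where the spot was not well above background. A2 minus A1 was -1.96 with OHT and -2.02 untreated, and B2 minus A1 was -0.54 and -0.99. With normexp B2 minus A1 was 0.009 with OHT and -0.42 untreated. The first Sox17 probe had -0.37 and -0.57 and the second -0.49 and -0.62. None of these passed limma. All 4 labelled knockout arrays were below both A1 arrays for the 2 Sox17 probes and Hnf4a, against 4.89% of all tested probes, and above them for no member, against 7.15%. Hnf4a entered the test through the wild type groups only, so its order here is not counted as support either. Over the 10 members the median within slide 1 was -0.51, or -0.41 without dark areas, and with normexp background correction it was -0.16. Over the tested probes of similar level these medians were -0.05, -0.04 and 0.07.

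**Figure D3:**
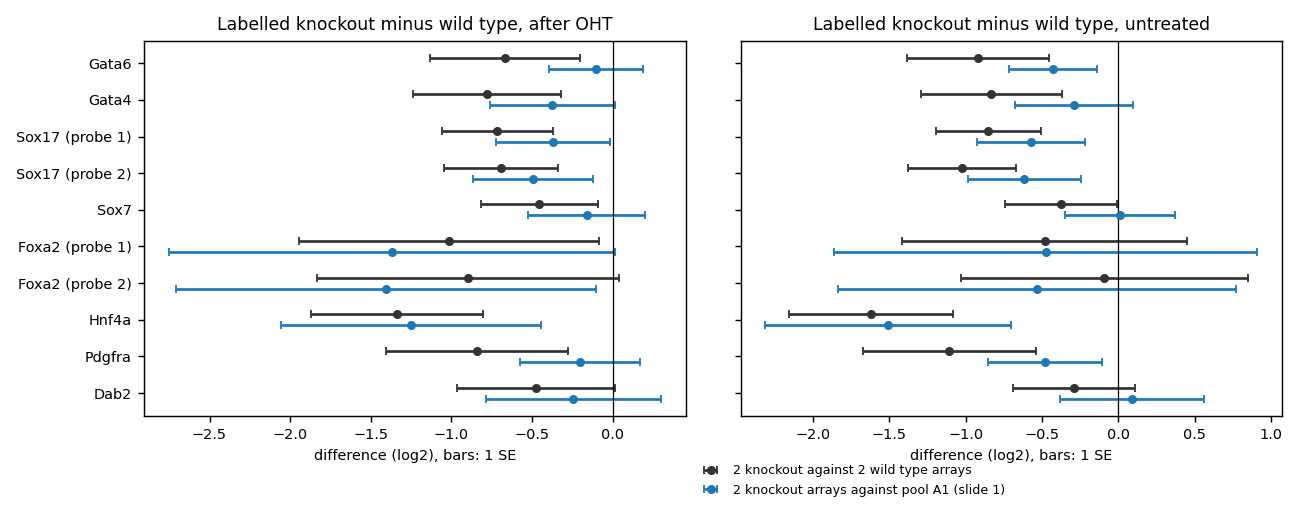
Labelled knockout minus wild type for each member probe (x axis, log2 difference; bars are 1 SE), with OHT on the left and untreated on the right, dark areas left out. Black points compare 2 arrays against 2 and blue points compare the labelled knockout arrays with pool A1, on the same slide. Gata6, Gata4, Pdgfra, Sox7, Dab2 and both Sox17 probes move towards 0 on slide 1, while Hnf4a stays between -1.62 and -1.25. The A2 readings of Hnf4a were not well above background.

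OHT, which removes the last RAS gene, gave no change in any regulator that passed the test, in either genotype. In the wild type the median over the 10 member probes was -0.07, against -0.08 over all tested probes, and in the labelled knockout 0.06 against 0.05. OHT minus untreated in pools A2, B2, A1 and B1 was 0.10, -0.24, -0.39 and -0.25 for Gata6. It was 0.20, 0.26, 0.32 and 0.04 for Gata4, the only member with a single sign in all 4 pools, though normexp gave -0.01 in A1 and -0.08 in B1. Dab2 was measured in 3 pools and was below 0 in each, though quantile normalization gave 0.01 in A1. For Pdgfra it was 0.76, -0.04, 0.09 and 0.11, so A2 alone stood away from 0. In both wild type pools OHT was higher for 4 member probes and lower for 4, against 25.8% and 45.2% of all tested probes. In both labelled knockout pools it was higher for 2 and lower for 0, against 38.3% and 26.3%. The 4 higher in the wild type include the second Foxa2 probe, which entered the test through wild type with OHT only.

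Foxa2 had the largest OHT values of the set. Its first probe was higher with OHT by 0.81 in A2, 0.95 in A1 and 0.22 in B1, and lower in B2 (-0.70). The second probe gave 1.11, 1.06 and 0.92 in the same 3 pools, but its untreated B1 reading was not well above background, and neither was its reading on either B2 array, so B2 gives no direction for it. With normexp both probes were below 0 in B1, at -0.03 and -0.37. In the wild type both Foxa2 probes were higher on both OHT arrays than on both untreated arrays, an order that 13.3% of all tested probes had. Hnf4a was lower on both, as were 24.8% of all tested probes. The second Foxa2 probe entered the test through wild type with OHT only, where it was higher, so its order is not counted as support. In the labelled knockout no member was higher on both OHT arrays, against 18.1%, and the 1 that was lower, Dab2, rests on the dark spot, against 9.56%. The wild type effects were 0.58 ± 0.95 for the first and 0.99 ± 0.96 for the second probe (SE; limma adjusted p = 1), and with normexp the second was -0.04. The Foxa2 effect of the labelled knockout minus that of the wild type was -0.53 for the first probe and -0.81 for the second, neither passing limma.

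The pools are paired, the same pool having been sampled with and without OHT. With pools as blocks, dark areas out and a trended robust variance, limma called 9.7% of all tested probes for OHT in wild type cells and 4.37% in labelled knockout cells, and 0 of the 10 member probes in either. At an unadjusted p under 0.05 it still had 0 of the 8 genes, each taken by its brightest probe. Over all tested probes that threshold took in 8187 of 32425 in wild type cells and 7438 of 32423 in labelled knockout cells. The test of the difference of the effects in this fit called 0.0% of all probes. Dab2 in the labelled knockout was -0.03 ± 0.23 (SE), from pool B2 alone.

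**Figure D4:**
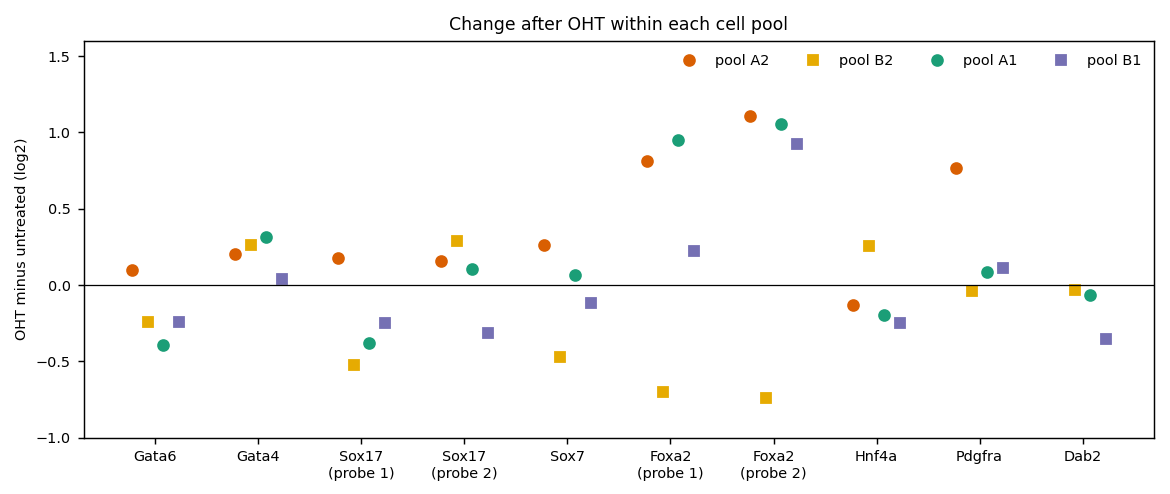
OHT minus untreated within each cell pool (y axis, log2 difference) for each member probe (x axis), one point a pool, labelled knockout pools A2 and B2 left of wild type pools A1 and B1. The Dab2 value of A2 is left out because its spot lay in a dark area, and the B2 point of the second Foxa2 probe sets against each other 2 readings that were not well above background; the first Foxa2 probe is higher after OHT in A2, A1 and B1 and lower in B2, and the Gata4 points all lie above 0.

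In the same paired fit, genes around the regulators did pass. Of 12 FGF and ERK pathway genes, 7 fell and 3 rose with OHT in the wild type, and 8 fell and 1 rose in the labelled knockout, with medians of -1.68 and -0.86 against -0.08 and 0.07 over all probes. Spry4, a feedback inhibitor of receptor tyrosine kinases, fell by 2.98 in the wild type, and Dusp4, an ERK phosphatase, fell by 2.40; in the labelled knockout Dusp4 fell by 2.02, as did the phosphatase gene Dusp6. Of 12 epiblast factors that oppose primitive endoderm, 6 rose and 1 fell in the wild type, and 4 rose and 1 fell in the labelled knockout, with medians of 0.82 and 0.73. Prdm14, a repressor of differentiation genes, rose by 2.11 in the wild type, and Tbx3, a T-box factor, by 2.03 in the labelled knockout. Gbx2, a homeobox gene of the list, fell by 2.55 in the wild type and fell by 2.10 in the labelled knockout. Their limma adjusted p-values were all under 0.05 in that fit, while the fit on group means passed none of these genes. With pools as blocks alone, dark areas kept and no trended robust variance, limma called 0 of 32425 probes in either genotype (5257 in labelled knockout cells and 5870 in wild type cells at an unadjusted p under 0.05), so the calls of these lists and of those that follow rest on the combined setting.

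Genes that act downstream of the regulators in extraembryonic endoderm were mixed. Of 24 listed products 20 were measured. In the paired fit 6 rose and 2 fell with OHT in the wild type. In the labelled knockout 5 rose and none fell, and the medians were 0.25 and 0.29. Over all tested probes that fit called 9.7% in the wild type (1185 up, 1961 down) and 4.37% in the labelled knockout (804 up, 613 down). The medians over all probes were -0.08 and 0.07. Pth1r, the parathyroid hormone receptor of parietal endoderm, rose by 1.34 in the wild type, and Cubn, an uptake receptor of visceral endoderm, fell by 0.74. Nid1, a basement membrane gene, rose by 0.62 in the labelled knockout and the apolipoprotein gene Apoe by 0.56. The visceral endoderm products Afp and Apoa1 were below background on all 8 arrays, and Ttr on 7. Basement membrane genes are expressed in many cell types, so this list is not specific to primitive endoderm. Of the other lists, 1 of 6 measured definitive endoderm and streak genes rose in the wild type (Gsc, a homeobox gene of the organizer, by 2.44) and none in the labelled knockout, with Cer1 and Mixl1 below background on all arrays. Of 7 measured trophoblast genes, 4 rose and 1 fell in the wild type and none passed in the labelled knockout (medians over the list 0.67 and 0.31). In the wild type Tfap2c, an AP-2 factor, rose by 1.41 and Cdx2, a caudal homeobox gene, fell by 1.33. At an unadjusted limma p under 0.05 there were 6 of the 7 in the labelled knockout and 5 in the wild type. The difference of the effects had 1 at that threshold and called 0 trophoblast genes, so these calls show no difference between genotypes. None of 9 measured fibroblast genes passed in either genotype (medians 0.07 and 0.47). Of 8 ES cell genes, 5 of which are also in the epiblast list, 2 rose and 2 fell in the wild type, and 1 rose and 2 fell in the labelled knockout, where Nanog rose by 1.16 and Utf1 fell by 0.83.

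Across the 8 arrays most regulators varied together. Among 7792 probes well above background on all arrays and with an SD of at least 0.3, the gene whose pattern was most like that of Gata6 was Sox17 (first probe, Pearson r = 0.94), followed by Pdgfra (0.94); with quantile normalization Pdgfra ranked 1 (0.94) and that Sox17 probe 5 (0.91), and with normexp Sox17 ranked 1 (0.98) and Pdgfra 4 (0.98). Sox7 ranked 5, Gata4 6 and the second Sox17 probe 18 of 7791, while the first Foxa2 probe ranked 3622 (r = 0.13). For the first Sox17 probe the nearest genes were Gata6 and Sox7 (0.94 and 0.91), and for Sox7 they were Sox17 and Gata6 (0.91 for both). Those nearest to Gata4 were Ip6k1 and Pik3r4 (0.98 for both), to Pdgfra Ip6k1 and Gata4 (0.95 for both), to the second Sox17 probe Tmem40 and Sin3b (0.91 and 0.88), and to Foxa2 Ms4a10 and Exd1 (0.96 and 0.94). The 2 Foxa2 probes had r = 0.94 with each other and the 2 Sox17 probes 0.87.

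The 8 arrays are 4 pools sampled in pairs, and the B1 pair sits apart on its own slide, so these correlations are a description. On the 6 arrays of slide 1 the first Sox17 probe ranked 21 for likeness to Gata6 (r = 0.88), but Pdgfra ranked 760 (0.50), Sox7 1605 (0.35), the second Sox17 probe 1886 (0.30) and Gata4 2313 (0.24). The joint variation of Gata6 with Pdgfra, Sox7 and Gata4 thus rested on the B1 pair, while that with the first Sox17 probe, though not the second, was also present on slide 1. There the first Sox17 probe ranked lower with other processing, 64 with normexp (r = 0.85) and 51 with quantile normalization (0.83).

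**Figure D5:**
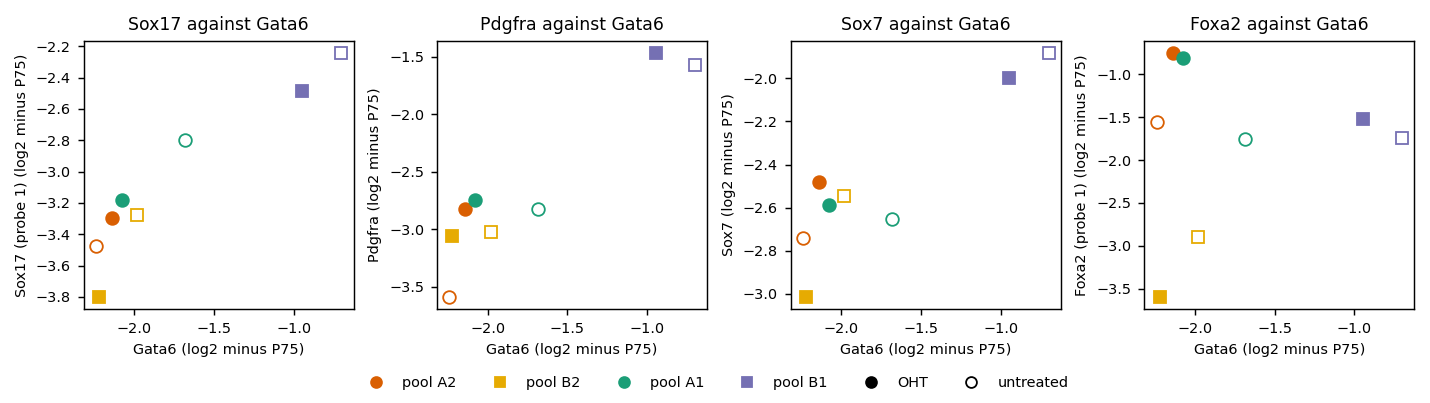
Level of the first Sox17 probe, Pdgfra, Sox7 and the first Foxa2 probe (y axes) against that of Gata6 (x axis), log2 signal minus the array 75th percentile, over the 8 arrays. Colours and shapes are pools, filled points are OHT and open points untreated; the B1 pair lies at the upper right for Sox17, Pdgfra and Sox7, and Foxa2 has no common order with Gata6.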

How the data were processed

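Cy3-labelled total RNA of 8 samples was hybridised to Agilent arrays of 1 colour, per the labels. The deposited intensity of each spot comes from Agilent Feature Extraction 11.5.1.1, as the file headers state, with background subtracted and a spatial trend removed but no scaling between arrays. Median pixel intensities of spot and surround, deposited in the same files, served for normexp (offset 50). The deposited flags (other columns) mark spots well above background, saturated or outlying, per the file headers. No source used here gives the authors' normalisation or tests.

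Control and outlier spots were dropped and spots of a probe averaged. Levels are the log2 signal after subtraction of the array's 75th percentile. Accessions were matched to RefSeq genes of GRCm38.p6 for names only, and 28026 of 55681 probes had a name. A spot was in a dark area if the median residual within 5 spots each side was under -0.5 (log2). Differences were fitted with limma 3.58.1 in R 4.3.3 to the means of 4 groups, with 4 residual degrees of freedom, two-sided, and Benjamini-Hochberg adjusted over 32425 tested probes at 0.05. There were 5 comparisons: OHT within each genotype, the difference of these effects, and genotypes compared with OHT and untreated. The code was tested on simulated data. The number of arrays limits precision.

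Pools are biological replicates in the series' design text, and source names tie a pool's OHT and untreated samples together. Pool deviations from group means had correlations of 0.37 (labelled knockout) and 0.63 (wild type), or 0.53 and 0.68 without dark areas. The members, gene lists, tests and alternatives were chosen with earlier results of these data known. Named genes are all members, Erf, at most 2 passing genes of each list by size of change, and the 2 genes most like each member. Python 3.11.15, numpy 2.4.6, pandas 2.3.3 and matplotlib 3.10.9 made the remaining tables and figures.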

Additional observations from a re-analysis of the deposited data

How the results depend on the processing

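No member probe passed in any of the 5 comparisons with normexp, quantile normalization, no filter, the stricter filter, 1 probe a gene, array weights, trended variance, dark areas out, slide as a block or within slide 1. The replicate block of pools alone also gave 0 member calls for the OHT effects and could not estimate the labelled knockout against the wild type; over all probes it called 0 for OHT in the wild type, 0 in the labelled knockout and 0 for the difference (2289 there at an unadjusted p under 0.05). Deviations of same-lettered pools of different genotypes had correlations of 0.42 untreated and 0.29 with OHT, against 0.19 and 0.44 with treatments crossed. No label says that a letter marks a shared batch, so the letters share only a number; a replicate block by number, added after seeing the data, gave 0 calls among members and all probes in each comparison, with dark areas kept or out (for the labelled knockout against the wild type at an unadjusted p under 0.05, with dark areas kept, 2099 with OHT and 1399 untreated). Leaving out each array gave 0 to 1 member calls for OHT in the labelled knockout, for the difference of effects and for the labelled knockout against the wild type with OHT. The 1 was Dab2, without the B2 array with OHT, which leaves the dark A2 spot alone. Without pool B2 there was 1 call (Dab2) for OHT in the labelled knockout and 2 (Dab2, and Hnf4a, which was not well above background in A2) for the labelled knockout against the wild type with OHT, and none with dark areas also out.

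The sign turned for values that did not pass, and the cause was not tested. For the second Foxa2 probe the OHT effect was -0.042 with normexp in the wild type, and -0.26 with quantile normalization and -0.74 without A2 in the labelled knockout; the first probe had -0.15 and -0.70 there. The difference of effects was 0.21 with normexp and 0.12 without B2 for the second Foxa2 probe, 0.23 without B2 for the first, and 0.17 for Dab2 without A2 and in the paired fit. For the labelled knockout against the wild type, untreated, the second Foxa2 probe had 0.35 with quantile normalization and 0.38 without B2, the first 0.18 without B2, Sox7 0.010 within slide 1, and Dab2 0.014 with slide as a block, 0.086 within slide 1 and 0.069 without B2. With OHT the second Foxa2 probe had 0.50 and the first 0.41 without B2. The values within slide 1, with slide as a block and without A2 or B2 were the same with dark areas also out. The second Foxa2 probe was not well above background on either B2 array.

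Leaving out 1 array gave ranges across 0 for Dab2 with OHT in the wild type (-0.58 to 0.17), for the second and first Foxa2 probes with OHT in the labelled knockout (-1.21 to 1.58 and -1.37 to 1.48) and in the difference (-2.20 to 0.59 and -1.96 to 0.89), and for the labelled knockout against the wild type with OHT (-2.30 to 0.50 and -2.44 to 0.41) and untreated (-0.57 to 0.38 and -1.15 to 0.18). Untreated Sox7 ran from -0.76 to 0.010 and Dab2 from -0.67 to 0.086. Over all tested probes leaving out 1 array gave 0 to 91 calls for OHT in the wild type (91 without untreated B1), 0 to 807 in the labelled knockout, 0 to 628 for the difference, and for the labelled knockout against the wild type 0 to 823 with OHT and 0 to 88 untreated (the highest without B2 with OHT, or for the last without untreated B1). The OHT calls in the wild type numbered 0 on group means, 8 with normexp, 8 with the stricter filter, 6 with trended variance and 7 with array weights. They numbered 0 with pools as blocks alone and 3146 in the paired fit, which also left dark areas out and used a trended robust variance. At an unadjusted p under 0.05 the fit on group means had 1719 there, 1342 for OHT in the labelled knockout, 676 for the difference, 788 for the labelled knockout against the wild type with OHT and 725 untreated.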

Other observations

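Summed over their most abundant probes, the epiblast factors read 214 with OHT and 151 untreated in pool A2, in units of the array's 75th percentile, against 346 to 616 on the other 6 arrays, and the ES cell markers 299 and 327, against 447 to 640. In the same pool Hnf4a was not well above background while the first Foxa2 probe was above both wild type pools, though with normexp it was below untreated B1.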
